A study of Homo sapiens with 9 samples.

Results

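Transcripts of 34 genes of glycolysis and the pentose phosphate pathway were followed in MV4-11 cells, a human line established from acute myeloid leukaemia. The cells had spent 24 h with DMSO as vehicle or with 1 of 2 compounds, JPX-0700 and JPX-0750. The genes were taken by symbol from a list, and all 34 stood among the 26929 genes of the deposited table. The series title describes the compounds as degraders of both STAT3 and STAT5, which are transcription factors. Each compound was set against the vehicle, and both against each other. Each group had 3 libraries, 9 in all. They came from total RNA and a kit that reads the 3′ end of polyadenylated RNA. Nothing was knocked out, all groups were the same line in the same medium, and the dose of the compounds was not given in the sources used here. Nothing in the labels states that the replicates were separate cultures, so the p-values measure only the spread between these samples, which may be technical.

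Glycolysis splits glucose into pyruvate in the cytosol and yields ATP and NADH. Pyruvate then leaves as lactate or enters the mitochondrion, where the pyruvate dehydrogenase complex turns it into acetyl-CoA. The pentose phosphate pathway branches off at glucose 6-phosphate, makes NADPH and ribose for nucleotides in its oxidative arm, and returns sugars to glycolysis through transketolase and transaldolase. Leukaemia cells in culture are known for high glucose use, and many of these genes are known targets of the hypoxia factor HIF-1 and of MYC.

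Of the 34 genes, TALDO1 (transaldolase) passed the test after JPX-0700 and ENO1 (enolase) after JPX-0750, both downwards, and none passed between the compounds. The RefSeq promoters of these and of their uncalled partners TKT (transketolase) and ENO2 (the neuronal enolase) are shown first, with those of LDHA and PGK1, picked after their values and motifs were seen as examples that hold ACGTG more than once. Each is the 250 bases before the gene's start in GRCh38.p14, written in the direction of the gene. They span chr11:747214-747463 on the plus strand, chr1:8878687-8878936 on the minus strand, chr3:53256023-53256272 (minus), chr12:6914330-6914579 (plus), chr11:18394313-18394562 (plus) and chrX:78103998-78104247 (plus). Capitals mark ACGTG, the core of the hypoxia response element, on either strand, the E-box CACGTG, which contains it, and TTCNNNGAA, the form of a STAT site.
TALDO1: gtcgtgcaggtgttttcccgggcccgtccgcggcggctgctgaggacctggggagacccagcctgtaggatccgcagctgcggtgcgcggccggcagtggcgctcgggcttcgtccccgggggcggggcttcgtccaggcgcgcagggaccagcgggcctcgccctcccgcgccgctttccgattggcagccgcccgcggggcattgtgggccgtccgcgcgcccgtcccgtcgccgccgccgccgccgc
ENO1: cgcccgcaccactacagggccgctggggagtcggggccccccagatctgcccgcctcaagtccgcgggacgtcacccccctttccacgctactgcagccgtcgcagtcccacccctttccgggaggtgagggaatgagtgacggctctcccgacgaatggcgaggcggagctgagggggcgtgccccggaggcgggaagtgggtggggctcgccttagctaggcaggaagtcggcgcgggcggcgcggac
TKT: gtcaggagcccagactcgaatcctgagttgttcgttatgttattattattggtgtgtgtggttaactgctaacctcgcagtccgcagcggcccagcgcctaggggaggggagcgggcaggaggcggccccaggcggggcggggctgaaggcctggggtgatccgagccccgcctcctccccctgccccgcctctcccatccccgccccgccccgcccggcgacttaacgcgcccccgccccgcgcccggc
ENO2: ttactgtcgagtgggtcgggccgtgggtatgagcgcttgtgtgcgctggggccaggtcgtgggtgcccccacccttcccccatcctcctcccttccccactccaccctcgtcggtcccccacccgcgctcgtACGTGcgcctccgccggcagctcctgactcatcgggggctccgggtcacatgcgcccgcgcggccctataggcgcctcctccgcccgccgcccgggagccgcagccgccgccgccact
LDHA: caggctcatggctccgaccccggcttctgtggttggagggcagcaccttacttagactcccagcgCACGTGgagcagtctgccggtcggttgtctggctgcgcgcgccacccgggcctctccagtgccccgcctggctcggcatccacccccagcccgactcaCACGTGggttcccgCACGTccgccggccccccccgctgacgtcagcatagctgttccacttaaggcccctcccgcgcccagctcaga
PGK1: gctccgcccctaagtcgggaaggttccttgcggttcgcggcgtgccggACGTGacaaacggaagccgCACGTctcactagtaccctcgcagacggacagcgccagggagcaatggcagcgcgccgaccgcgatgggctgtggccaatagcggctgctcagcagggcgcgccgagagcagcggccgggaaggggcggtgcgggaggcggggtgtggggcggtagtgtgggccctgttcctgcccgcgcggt

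The windows of TALDO1, ENO1 and TKT held none of the 3 motifs. That of ENO2 held ACGTG 1 time, that of PGK1 2 times and that of LDHA 5 times, 4 of them as both strands of 2 CACGTG. RefSeq entries were found for 32 of the members. ACGTG stood in 10 of the 32 (31.25%), namely PGD, HK2, PDHB, LDHA, GAPDH, ENO2, ALDOA, ALDOC, GPI and PGK1, and in 18.7% of all 27305 promoters of this length. CACGTG stood in 4 (12.5%, against 6.49%), namely PDHB, LDHA, GAPDH and ALDOC, and TTCNNNGAA in RPIA and PDK1 (6.25%, against 6.78%). A match describes these letters only.

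The libraries differed in ways that touch every value below. DMSO libraries held 2701317 to 6305586 reads, JPX-0700 libraries 739418 to 1852375 and JPX-0750 libraries 726043 to 1941860, and 1 read was worth 0.383 to 4.61 normalised counts. Structured noncoding RNAs (such as small nuclear and nucleolar ones) made up 0.136% ± 0.114 (SD, n = 3) of reads with DMSO, 9.31% ± 0.896 after JPX-0700 and 12.3% ± 1.19 after JPX-0750, and protein-coding genes 98.2%, 81.4% and 78.7%. Depth and RNA class thus moved with treatment, and their part in the results was not tested. In each group 1 library (replicate 1 of DMSO, replicate 3 of either compound) detected few genes, 9816, 10027 and 10407, fewer than the 13068 to 14616 of the other libraries, and the main counts are also given without them. Of 13 myeloid markers 12 were detected in at least 1 library, with LYZ and FLT3 in every library, and CD14 was at 0 throughout. MPO lay between 0 and 14.6 normalised counts, HOXA9 between 0 and 4.61 and ITGAM between 0 and 33.5. PTPRC was at 0 in JPX-0700 replicate 3. The 13 markers summed to 6163 to 9788 normalised counts with DMSO, 3153 to 5219 after JPX-0700 and 2633 to 4401 after JPX-0750. With DMSO most of that sum was LYZ. The other 12 summed to 2108 to 2953, 1470.1 to 2559 and 1659 to 2237, and the groups overlapped. Of 10 myeloid markers tested, LYZ alone passed, while MEIS1, a homeobox factor, lay above DMSO in all 3 JPX-0750 libraries without passing (log2 fold change 1.37 ± 0.58 SE, limma adjusted p = 0.268). CSF1R lay wholly below DMSO with both compounds without passing (-2.22 ± 1.11 and -0.86 ± 1.11, limma adjusted p = 0.284 and 0.769). FLT3 lay wholly below DMSO after JPX-0750 without passing (-0.88 ± 0.49, limma adjusted p = 0.434). LYZ, the gene of lysozyme, fell after JPX-0750 (log2 fold change -1.93 ± 0.49 SE, limma adjusted p = 0.0292, lost without DMSO replicates 1 or 2 or JPX-0750 replicates 1 or 2, and -2.44 without JPX-0750 replicate 3). The JPX-0700 libraries also lay wholly below DMSO for LYZ, without passing (-1.55 ± 0.49, limma adjusted p = 0.0737). Between the compounds LYZ differed by -0.38 (limma adjusted p = 0.895). Markers of T and NK cells (6), B and plasma cells (4), red cells and platelets (5) and epithelial cells and fibroblasts (6) summed to at most 72.3, 27.3, 4.61 and 129.9 in any library. EPCAM, DCN, HBB, PPBP and JCHAIN were at 0 in all 9. COL1A1, of the last list, was at 0 with DMSO and above 0 in every treated library. It had 23.0, 11.2 and 5.56 after JPX-0700 and 17.1, 4.55 and 108.3 after JPX-0750, without passing (log2 fold changes 3.64 ± 1.48 and 4.47 ± 1.48 SE, limma adjusted p = 0.178 and 0.12). These were 10 reads after JPX-0700 and 71 after JPX-0750, 65 of them in replicate 3. KRT18, of the same list, lay wholly below DMSO with both compounds, without passing (log2 fold changes -2.55 ± 1.41 and -1.19 ± 1.41 SE, limma adjusted p = 0.333 and 0.744). Of the T and NK markers, CD3D had 50.02 in JPX-0700 replicate 3 and 0 elsewhere. GNLY had 49.98 in JPX-0750 replicate 3 and at most 1.92 elsewhere. NKG7 had 52.1, 39.1 and 32.3 with DMSO, 36.9, 22.4 and 2.78 after JPX-0700 and 6.85, 59.1 and 3.33 after JPX-0750, with overlap.

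As a pool, the 34 genes took a smaller share of reads in every treated library than in any DMSO library. The share was 1.07%, 1.12% and 1.10% of all reads in the 3 DMSO libraries, 0.397%, 0.482% and 0.415% after JPX-0700, and 0.335%, 0.469% and 0.499% after JPX-0750. The group means were 1.10% ± 0.0287 (SD, n = 3), 0.431% ± 0.0449 and 0.434% ± 0.0870. Of protein-coding reads alone the genes took 1.11% ± 0.0278, 0.530% ± 0.0517 and 0.550% ± 0.0971. Without GAPDH, the most counted of them with DMSO, the share of all reads was 0.835% ± 0.0276, 0.305% ± 0.0481 and 0.334% ± 0.0776. The treated groups overlapped each other in each of these measures. In bulk samples, a lower share in every cell and a smaller fraction of cells with a high share cannot be told apart. Depth and RNA class also moved with treatment, and their part in this share was not tested.

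**Figure D1:**
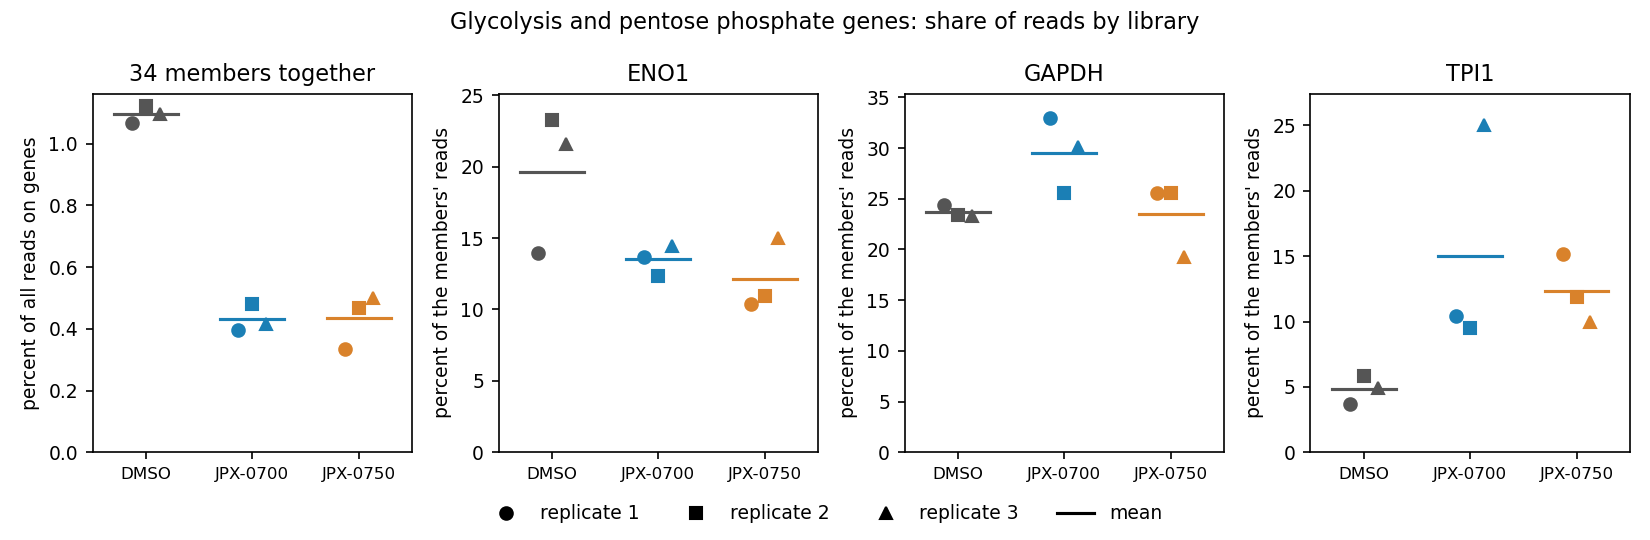
Share of reads in each library, by group on the horizontal axis, with the vertical axis in percent and the group mean as a line. The first panel gives the 34 genes together as a share of all reads on genes, where the 6 treated libraries sit between 0.335% and 0.499% and the DMSO libraries between 1.07% and 1.12%. The other panels give ENO1, GAPDH and TPI1 as shares of the members' own reads, where TPI1 is above DMSO in every treated library.

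Single genes took unequal parts of this pool. TPI1, triose phosphate isomerase, took 3.71, 5.85 and 4.95% of the pool's reads in the DMSO libraries, 10.5, 9.51 and 25.1% after JPX-0700 and 15.2, 11.8 and 9.98% after JPX-0750. All 6 treated libraries lay above DMSO. ENO1 took 13.9, 23.3 and 21.6% in DMSO, 13.7, 12.4 and 14.5% after JPX-0700 and 10.4, 11.0 and 15.0% after JPX-0750, and both treated groups overlapped DMSO. GAPDH took 24.4, 23.4 and 23.3% with DMSO, 33.0, 25.6 and 30.1% after JPX-0700, wholly above, and 25.6, 25.6 and 19.3% after JPX-0750. These shares depend on each other, since a smaller share of one gene raises the others.

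The first comparison set JPX-0700 against DMSO. Of the 34 genes 33 had a mean of at least 5 normalised counts over the 9 libraries and were tested, the exception being PGAM1, the phosphoglycerate mutase. Of the 33, 0 rose and 1 fell, in limma on log2(normalised count + 1) with Benjamini-Hochberg adjustment over 12301 genes. Among all genes tested 5.28% rose and 0.496% fell. Log2 fold changes lay below 0 for 26 members and above 0 for 7, with a median of -0.87 (0.14 over all genes tested, 46.5% of which lay below 0). The JPX-0700 libraries lay wholly below DMSO for 14 members and wholly above for RPE alone. Separation of this kind downwards was found in 10.3% of all genes and upwards in 16.5%. Most members have high counts, and among genes with a mean of at least 50 the shares were 12.1% and 22%, against 14 and 1 of 26 members.

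The second comparison set JPX-0750 against the same DMSO libraries, so the values of both comparisons share their controls. Of 33 members 0 rose and 1 fell, where 3.9% of all genes rose and 0.0732% fell. Again 26 log2 fold changes lay below 0 and 7 above, with a median of -0.93 (0.26 over all genes, 42.5% of which lay below 0). JPX-0750 libraries lay wholly below DMSO for 12 members and wholly above for RPE and TPI1, separations found in 9.18% and 19.7% of all genes. Among genes with a mean of at least 50 the shares were 11.8% and 22.4%, against 11 and 2 of 26 members.

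How many members passed depended on the scaling of the libraries. When each library was scaled to the same total, 8 members fell after JPX-0700 (ENO1, GPI, LDHA, PDHA1, PGK1, RPIA, SLC16A1 and TALDO1) and 4 after JPX-0750 (ENO1, GAPDH, GPI and PGK1), where 2.33% and 0.463% of all genes fell. Scaled to the same protein-coding total, 5 (ENO1, GPI, LDHA, PGK1 and TALDO1) and 2 (ENO1 and GPI) fell, beside 1.02% and 0.146% of all genes. Over all genes the median (log2) went from 0.14 to -0.49 after JPX-0700 under the first of these scalings, and from 0.26 to -0.23 after JPX-0750. The calls over all genes went from 649 higher and 61 lower to 378 and 286 after JPX-0700, and from 480 and 9 to 304 and 57 after JPX-0750. The JPX-0700 splits were 426 and 125 with protein-coding totals, 510 and 123 with trimmed means (TMM) and 581 and 258 after quantile normalization, and the JPX-0750 split after quantile normalization was 528 and 102. The members' median stayed below 0 in every scaling. Without the 3 libraries with the fewest genes, a setting chosen after the data were seen, 8 members fell after JPX-0700 (ENO1, GPI, LDHA, PGK1, PKM, SLC2A1, SLC16A1 and TALDO1) and 0 rose, where 3.6% of all genes fell and 17.5% rose. In that setting 5 fell (ENO1, GPI, LDHA, PGK1 and PKM) and SLC2A3 rose after JPX-0750, where 3.05% of all genes fell and 17.8% rose.

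**Figure D2:**
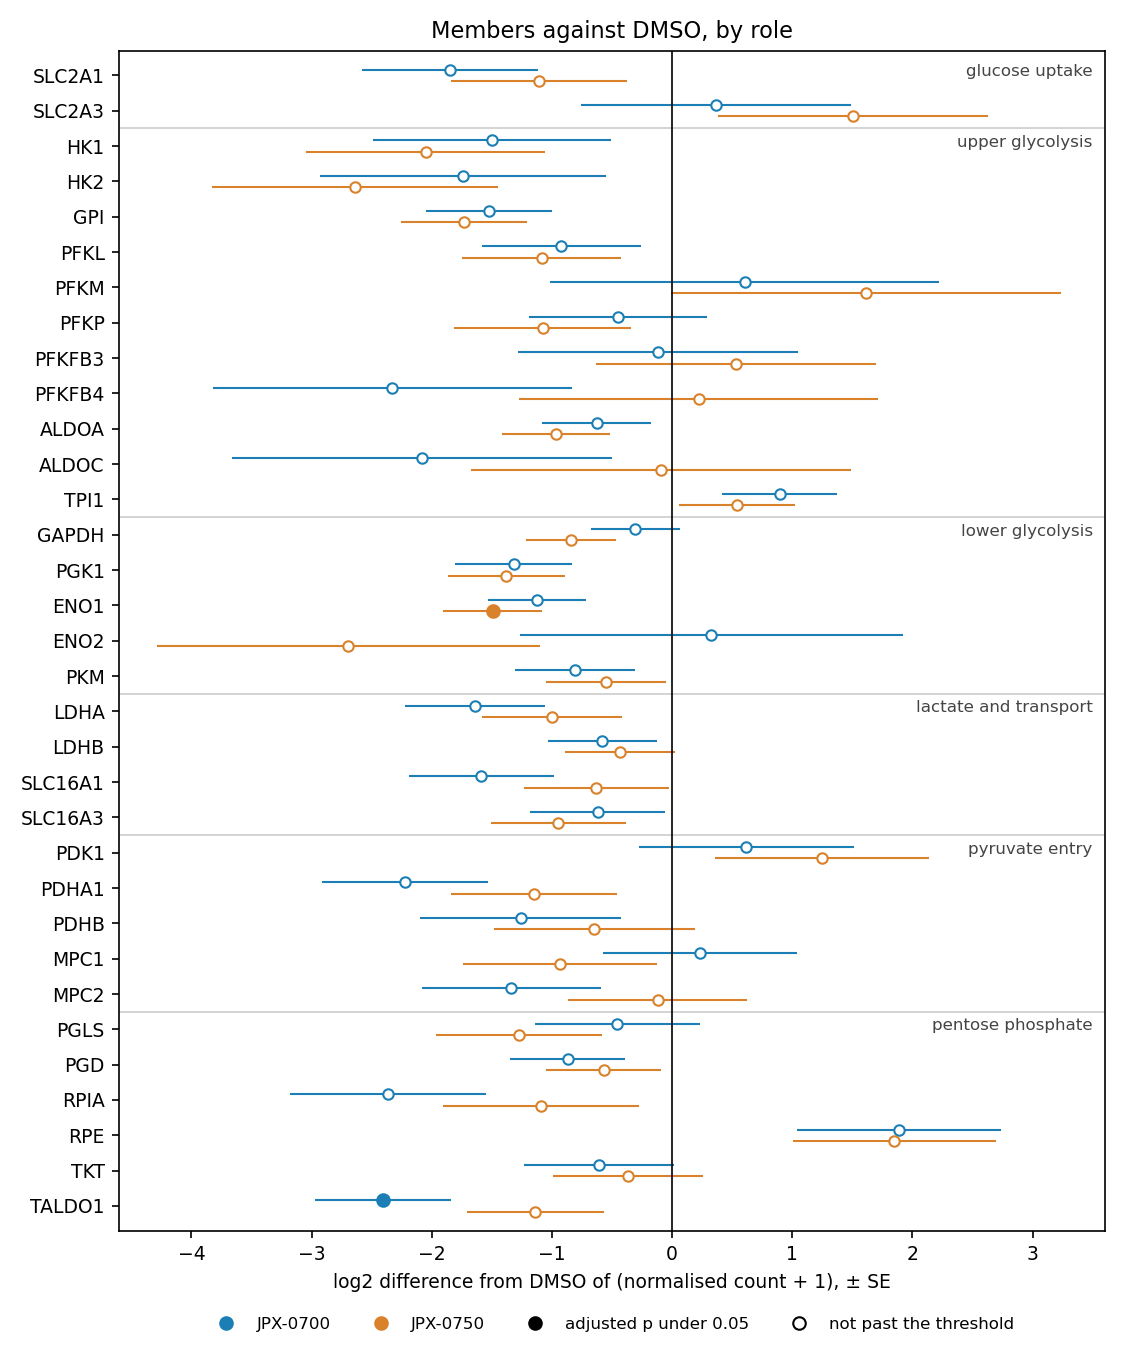
Log2 difference from DMSO of log2(normalised count + 1) for the 33 tested genes, grouped by role, with 1 SE on each side and n = 3 libraries per group. Filled points passed the adjusted threshold, which are TALDO1 with JPX-0700 and ENO1 with JPX-0750, and 26 points of each compound lie below 0.

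Glucose uptake was represented by the transporters SLC2A1 (GLUT1) and SLC2A3 (GLUT3), and neither passed the test. SLC2A1 had 358, 188 and 159 normalised counts in the DMSO libraries, 50.7, 52.2 and 83.4 after JPX-0700 and 44.5, 100.05 and 235 after JPX-0750. It lay wholly below DMSO after JPX-0700 (log2 fold change -1.85 ± 0.73 SE, adjusted p = 0.165) and overlapped it after JPX-0750 (-1.11 ± 0.73, 0.523). SLC2A3 had 73.6, 18.0 and 7.54 in DMSO, 32.3, 63.4 and 11.1 after JPX-0700 and 61.6, 68.2 and 63.3 after JPX-0750, so that the 3 JPX-0750 libraries were close together within the wide DMSO range. Its log2 fold changes were 0.37 ± 1.12 and 1.51 ± 1.12 (adjusted p = 0.884 and 0.573). Under total-sum scaling the JPX-0700 value of SLC2A3 changed sign.

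Upper glycolysis, the steps that spend ATP and cut the hexose, had 11 members, of which 0 rose and 0 fell with either compound, with medians of -0.92 (JPX-0700) and -0.97 (JPX-0750). GPI, the isomerase that makes fructose 6-phosphate (chromosome 19, 34359718 to 34402413), was the most separated. It had 1122, 960.2 and 1063 normalised counts with DMSO, 207, 414 and 559 after JPX-0700 and 164, 364 and 519.8 after JPX-0750. Every treated library lay well below the lowest DMSO value, replicate 3 being the highest of each treated group. The log2 fold changes were -1.52 ± 0.52 and -1.73 ± 0.52 (adjusted p = 0.106 and 0.079), and GPI fell when libraries were scaled to the same total or protein-coding total, with both compounds.

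The hexokinases, which trap glucose in the cell, did not pass. HK1 had 143, 97.0 and 86.7 normalised counts with DMSO, 36.9, 22.4 and 61.1 after JPX-0700 and 6.85, 45.5 and 46.6 after JPX-0750, with no overlap with DMSO in either. HK2, the inducible form, had 97.0, 95.1 and 38.8 in DMSO, 41.5, 14.9 and 13.9 after JPX-0700 and 6.85, 31.8 and 5.00 after JPX-0750. JPX-0750 libraries lay wholly below DMSO, and JPX-0700 replicate 1 overlapped it. These treated values rest on few reads, 18 after JPX-0700 and 12 after JPX-0750 for HK2 (428 with DMSO). HK1 had 36 and 40 (573 with DMSO), with 2 in JPX-0750 replicate 1. The log2 fold changes were -1.497 and -2.05 for HK1 and -1.74 and -2.64 for HK2 (adjusted p = 0.415, 0.365, 0.429 and 0.312).

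Phosphofructokinase, the committed step, has liver (PFKL), platelet (PFKP) and muscle (PFKM) subunits. PFKL had 277, 326 and 336 normalised counts with DMSO, 115, 175 and 219.5 after JPX-0700 (wholly below) and 223, 291 and 48.3 after JPX-0750 (overlapping). PFKP had 175, 189.8 and 130.3 in DMSO, 50.7, 104 and 317 after JPX-0700 and 85.6, 109 and 48.3 after JPX-0750, wholly below only after JPX-0750, while JPX-0700 replicate 3 was its highest library. PFKM stayed at 0 to 4.98 normalised counts with DMSO and JPX-0700 and reached 71.6 in JPX-0750 replicate 3. The enzymes that make and remove fructose 2,6-bisphosphate, its activator, had few reads. PFKFB3 had 14.4, 39.9 and 17.8 with DMSO, 27.7, 33.5 and 8.34 after JPX-0700 and 41.1, 36.4 and 21.7 after JPX-0750, all overlapping. PFKFB4 had 63.8, 6.52 and 11.3 in DMSO, 4.61, 7.45 and 0 after JPX-0700 and 6.85, 22.7 and 49.98 after JPX-0750, where DMSO replicate 1 stood above its partners and the JPX-0700 group held 3 reads in all. No member of this step passed (adjusted p of at least 0.401).

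Aldolase cuts the hexose, and triose phosphate isomerase joins the parts into 1 stream. ALDOA had 2879.8, 1037 and 1558 normalised counts with DMSO, 889, 1029 and 1376 after JPX-0700 and 811, 1141 and 673 after JPX-0750, with overlap in both. ALDOC had 58.4, 19.9 and 11.3 in DMSO, 0, 29.8 and 5.56 after JPX-0700 and 3.42, 86.4 and 31.7 after JPX-0750, with wide ranges within each group. TPI1 (chromosome 12, 6867420 to 6870948, where its span overlaps SPSB2) was among the few members that lay higher, with 959, 1588 and 1179 in DMSO, 1415, 1524 and 5347 after JPX-0700 and 1866, 1833 and 1609 after JPX-0750. JPX-0700 replicate 3 stood far above all others, and the 3 JPX-0750 libraries lay just above DMSO. Its log2 fold changes of 0.89 ± 0.48 and 0.54 ± 0.48 did not pass (adjusted p = 0.32 and 0.65), and the second lost its positive sign under total-sum scaling.

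**Figure D3:**
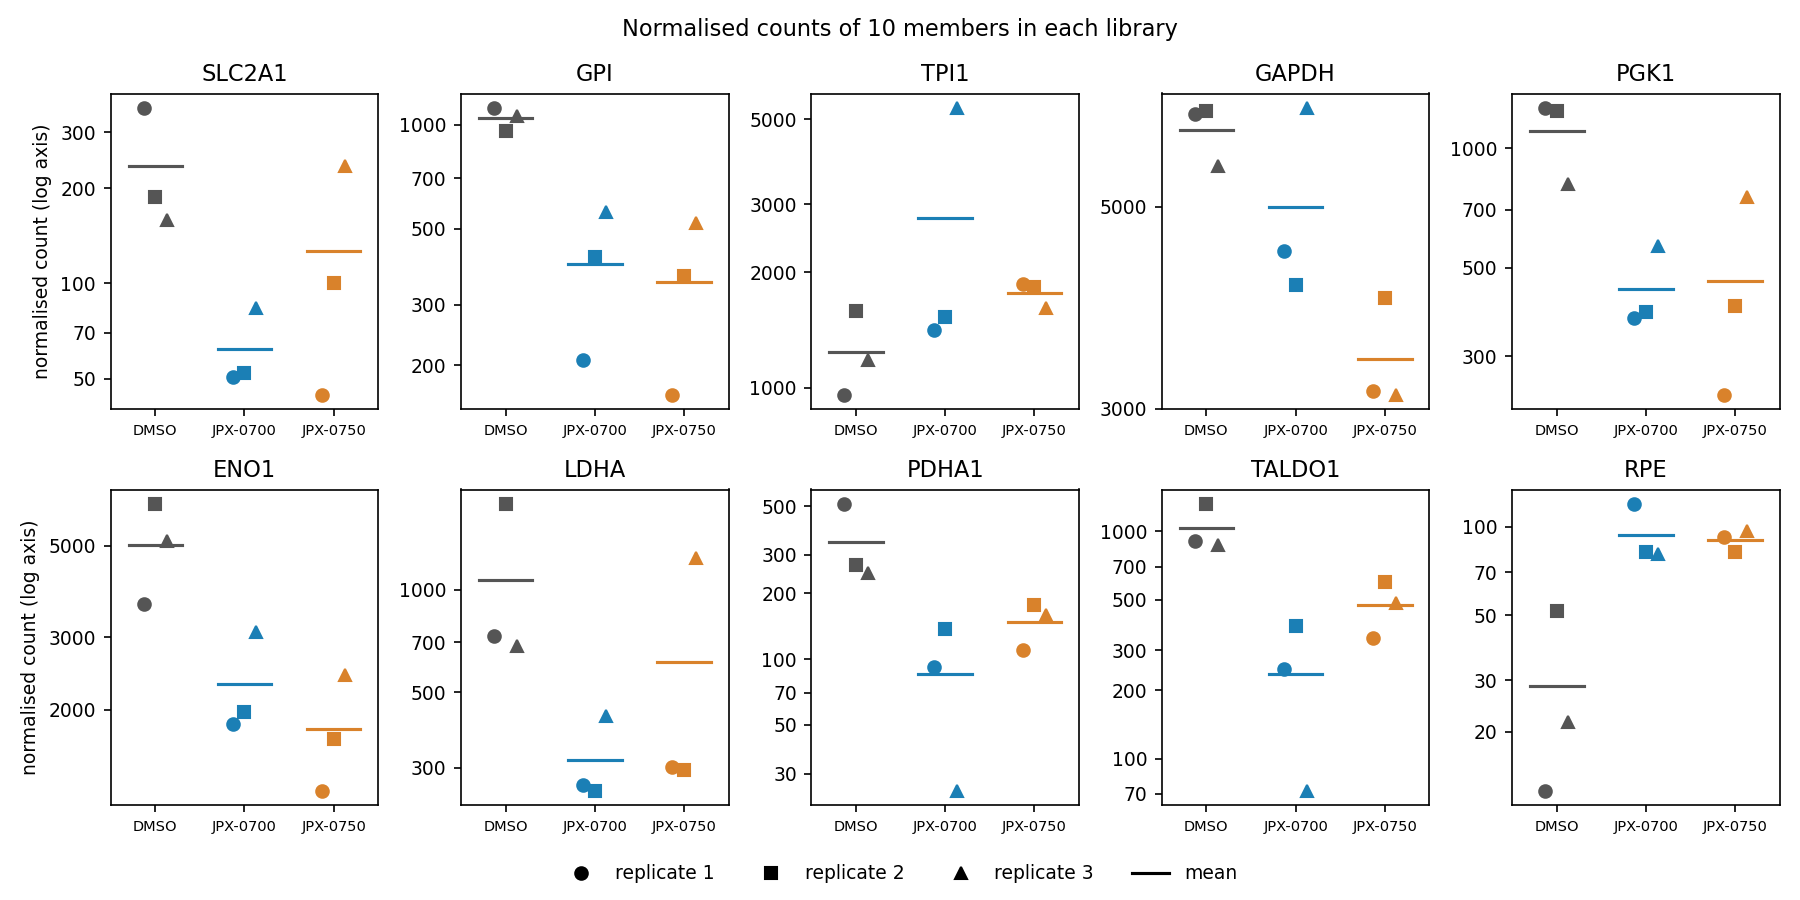
Normalised counts (log axis, with its own range in each panel) of 10 genes in each library, by group, with the group mean as a line. ENO1, GPI, PGK1, PDHA1 and TALDO1 lie below DMSO in all 6 treated libraries, RPE lies above, and TPI1 has its highest value, 5347, in JPX-0700 replicate 3.

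In lower glycolysis, which repays the ATP, ENO1 fell after JPX-0750. ENO1 (chromosome 1, 8861000 to 8878686, minus strand) makes phosphoenolpyruvate. It had 3604, 6322 and 5129 normalised counts in the DMSO libraries, 1848, 1983 and 3087 after JPX-0700 and 1273, 1696 and 2426 after JPX-0750. All 6 treated libraries lay below all 3 of DMSO, and the means were 5019 ± 1362, 2306 ± 680.0 and 1798 ± 583 (SD, n = 3). The log2 fold change after JPX-0750 was -1.49 ± 0.41 SE (limma adjusted p = 0.0491), that after JPX-0700 -1.12 ± 0.41 (adjusted p = 0.13). The JPX-0750 call is at the edge of the threshold, past it in 10 of 21 alternatives (adjusted p = 0.00325 to 0.300), and was lost without any 1 library other than JPX-0700 replicate 3 or JPX-0750 replicate 3. In all 21 alternatives its log2 fold change lay between -2.03 and -1.27.

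The other lower enzymes did not pass. PGK1, phosphoglycerate kinase on the X chromosome (78104248 to 78129295), had 1265, 1242 and 811 normalised counts with DMSO, 373, 388 and 567 after JPX-0700 and 239.6, 400.2 and 753 after JPX-0750. Both treated groups lay below DMSO (log2 fold changes -1.32 ± 0.49 and -1.38 ± 0.49, adjusted p = 0.136 and 0.153). GAPDH, the NADH-making dehydrogenase often used as a reference gene, had 6316, 6361 and 5544 in DMSO, 4466, 4103 and 6417 after JPX-0700 and 3139, 3965 and 3107 after JPX-0750. It overlapped DMSO after JPX-0700 through replicate 3 and lay wholly below it after JPX-0750 (log2 fold change -0.84 ± 0.37, adjusted p = 0.297). GAPDH has 65 named pseudogenes in RefSeq, and the sources used here do not say how reads that fit several places were counted. PKM, pyruvate kinase, had 509, 1241 and 1569 in DMSO, 512, 659.6 and 547 after JPX-0700 and 459, 623 and 1106 after JPX-0750, where DMSO replicate 1 lay among the treated libraries. ENO2 had 70.0, 16.5 and 5.92 in DMSO, 27.7, 14.9 and 36.1 after JPX-0700 and 30.8, 0 and 0 after JPX-0750, so the JPX-0750 group held 9 reads, all in replicate 1. PGAM1 had 44 reads over all 9 libraries and was not tested, and RefSeq names 13 pseudogenes of it.

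Lactate dehydrogenase and the monocarboxylate transporters end the cytosolic route, and of their 4 genes 0 rose and 0 fell, with medians of -1.10 (JPX-0700) and -0.79 (JPX-0750). LDHA, the subunit that favours lactate, had 729, 1785 and 686 normalised counts with DMSO, 267, 257 and 425 after JPX-0700 and 301, 296 and 1241 after JPX-0750. JPX-0700 libraries lay wholly below DMSO (log2 fold change -1.64 ± 0.58, adjusted p = 0.119), and JPX-0750 replicate 3 lay inside the DMSO range while its partners lay below (-1.003 ± 0.58, 0.455). LDHB had 1736, 1408 and 1293 in DMSO, 816, 1930.5 and 600.2 after JPX-0700 and 959, 1041 and 1286 after JPX-0750, with 1 JPX-0700 library above all of DMSO. SLC16A1 (MCT1), a lactate carrier, had 278, 235 and 305 in DMSO, 111, 123 and 52.8 after JPX-0700 and 130.1, 150.1 and 273 after JPX-0750, and lay below DMSO only after JPX-0700 (-1.59 ± 0.60, adjusted p = 0.146). SLC16A3 (MCT4), the exporter, had 304, 291 and 289 in DMSO, 119.8, 212 and 275 after JPX-0700 and 113, 241 and 129.9 after JPX-0750. Its DMSO libraries were nearly equal, and all treated libraries lay below them (-0.62 ± 0.56 and -0.95 ± 0.56, adjusted p = 0.561 and 0.469).

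Entry of pyruvate into the mitochondrion is set by the carrier (MPC1, MPC2), the dehydrogenase (PDHA1, PDHB) and the kinase PDK1, which turns the dehydrogenase off. None of the 5 passed, with medians of -1.26 (JPX-0700) and -0.65 (JPX-0750). PDHA1 had 512, 268 and 247 normalised counts with DMSO, 92.2, 138 and 25.0 after JPX-0700 and 109.5, 177 and 158 after JPX-0750. All treated libraries lay below DMSO, JPX-0700 replicate 3 lowest with 9 reads, and the log2 fold changes were -2.22 ± 0.69 and -1.15 ± 0.69 (adjusted p = 0.0704 and 0.473). Its span overlaps MAP3K15. PDHB had 105, 167 and 140.0 in DMSO, 115, 104 and 13.9 after JPX-0700 and 89.0, 63.7 and 112 after JPX-0750. JPX-0700 replicate 3 alone stood far below the rest, on 5 reads.

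MPC1 and MPC2 form 1 carrier and had unlike values across the libraries. MPC1 had 232, 115 and 229 normalised counts with DMSO, 226, 265 and 167 after JPX-0700 and 205, 223 and 18.3 after JPX-0750, where replicate 3 was the lowest of all 9, on 11 reads. MPC2, whose span overlaps DCAF6, had 153, 163 and 91.5 in DMSO, 69.1, 78.3 and 25.0 after JPX-0700 and 71.9, 118 and 208 after JPX-0750. It lay wholly below DMSO after JPX-0700 only, where the group held 45 reads. PDK1 had 79.0, 46.4 and 25.3 in DMSO, 92.2, 33.5 and 111 after JPX-0700 and 75.3, 54.6 and 315 after JPX-0750, highest in replicate 3 of both treated groups. None of their differences passed (adjusted p of at least 0.337).

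In the pentose phosphate pathway TALDO1 fell after JPX-0700. TALDO1 (chromosome 11, 747464 to 765012, plus strand) moves carbon units between sugars in the reversible arm. It had 909, 1321 and 867 normalised counts in the DMSO libraries, 248.9, 384 and 72.3 after JPX-0700 and 339, 596 and 483 after JPX-0750. All treated libraries lay below DMSO, and JPX-0700 replicate 3 was the lowest. The means were 1032 ± 251, 235 ± 156 and 473 ± 129 (SD, n = 3). The log2 fold change after JPX-0700 was -2.40 ± 0.57 SE (limma adjusted p = 0.0153), that after JPX-0750 -1.14 ± 0.57 (adjusted p = 0.383). The JPX-0700 call was past the threshold in 18 of 21 alternatives (adjusted p = 0.00432 to 0.0925). It was lost without DMSO replicate 1 (adjusted p = 0.0547) or 2 (0.0925), and when only the JPX-0700 and DMSO libraries were fitted. Leaving out JPX-0700 replicate 3 gave -1.71 on the log2 scale.

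The other 5 pentose phosphate genes did not pass. TKT, which works beside transaldolase, had 1978, 368 and 1171 normalised counts with DMSO, 747, 1248 and 258 after JPX-0700 and 832, 955 and 501 after JPX-0750. The DMSO libraries were far apart, and their range covered all treated libraries but JPX-0700 replicate 3. RPIA, which makes ribose 5-phosphate, had 222, 193 and 91.0 in DMSO, 32.3, 48.4 and 16.7 after JPX-0700 and 47.9, 63.7 and 128 after JPX-0750, wholly below DMSO after JPX-0700 (log2 fold change -2.36 ± 0.82, adjusted p = 0.107). RPE, the epimerase that makes xylulose 5-phosphate, stood on the other side, with 12.6, 51.8 and 21.5 in DMSO, 119.8, 82.0 and 80.6 after JPX-0700 and 92.4, 81.9 and 96.6 after JPX-0750. Its treated libraries lay wholly above DMSO in both groups (log2 fold changes 1.89 ± 0.85 and 1.85 ± 0.85, adjusted p = 0.228 and 0.323). Its span (chromosome 2, 210002638 to 210022260) overlaps KANSL1L, and the sources used here do not name the strand counted. PGD, the last enzyme of the oxidative arm, had 414, 680.2 and 478 in DMSO, 235, 388 and 242 after JPX-0700 and 294, 437 and 322 after JPX-0750, wholly below DMSO after JPX-0700 only (-0.87 ± 0.48, adjusted p = 0.331). PGLS, the lactonase before it, had 212, 309 and 195 in DMSO, 134, 116 and 319.6 after JPX-0700 and 147, 164 and 36.7 after JPX-0750, wholly below DMSO after JPX-0750 only.

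Set directly against each other, JPX-0750 and JPX-0700 differed in 0 of 33 members, as in 0% of all 12301 genes by limma (395 at an unadjusted p under 0.05, and 0 calls by voom on recovered reads, 540 unadjusted). The labels give 24 h for both and no dose, so equal doses cannot be assumed. Log2 differences (JPX-0750 minus JPX-0700) lay below 0 for 15 members and above 0 for 18, with a median of 0.24 (0.10 over all genes). GAPDH lay wholly lower and SLC16A1 wholly higher after JPX-0750, separations found in 3.63% and 4.72% of all genes. TALDO1 was the only member at an unadjusted p under 0.05, with a difference of 1.27 (95% interval 0.07 to 2.46, adjusted p = 0.848). For ENO1 the difference was -0.37 (95% interval -1.23 to 0.49). The 3 widest differences were those of weakly counted genes, -3.02 for ENO2 (-6.37 to 0.33), 2.55 for PFKFB4 (-0.59 to 5.69) and 1.99 for ALDOC (-1.33 to 5.31). The intervals are wide, and a difference that misses the threshold does not show that the compounds act alike.

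Ratios between related genes within a library do not depend on its scaling beyond the pseudocount, and 11 pairs were compared in 3 comparisons. With 3 against 3 libraries the two-sided exact permutation test cannot go below p = 0.1, and the smallest adjusted p was 0.66, so no ratio passed. The log2 ratio of SLC2A1 to SLC2A3 was 2.27, 3.31 and 4.23 with DMSO and -0.46, 0.55 and 1.88 after JPX-0750, wholly lower, with a difference of -2.62. It was 0.64, -0.28 and 2.80 after JPX-0700, overlapping DMSO. The ratio of TKT to TALDO1 was 1.12, -1.84 and 0.43 with DMSO and 1.58, 1.70 and 1.82 after JPX-0700, higher by 1.80 and without overlap. With JPX-0750 it was 1.29, 0.68 and 0.05, wholly below JPX-0700. The ratio of MPC1 to MPC2 was 0.60, -0.49 and 1.32 with DMSO, 1.69, 1.74 and 2.69 after JPX-0700 and 1.502, 0.91 and -3.44 after JPX-0750. It too was separated between JPX-0700 and each of the other groups. LDHA to LDHB overlapped in every comparison. The pairs without overlap, 2, 1 and 2 for JPX-0700, for JPX-0750 (each against vehicle) and between the compounds, each had exact permutation p = 0.1 and adjusted p = 0.66, so their number is a description only.

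**Figure D4:**
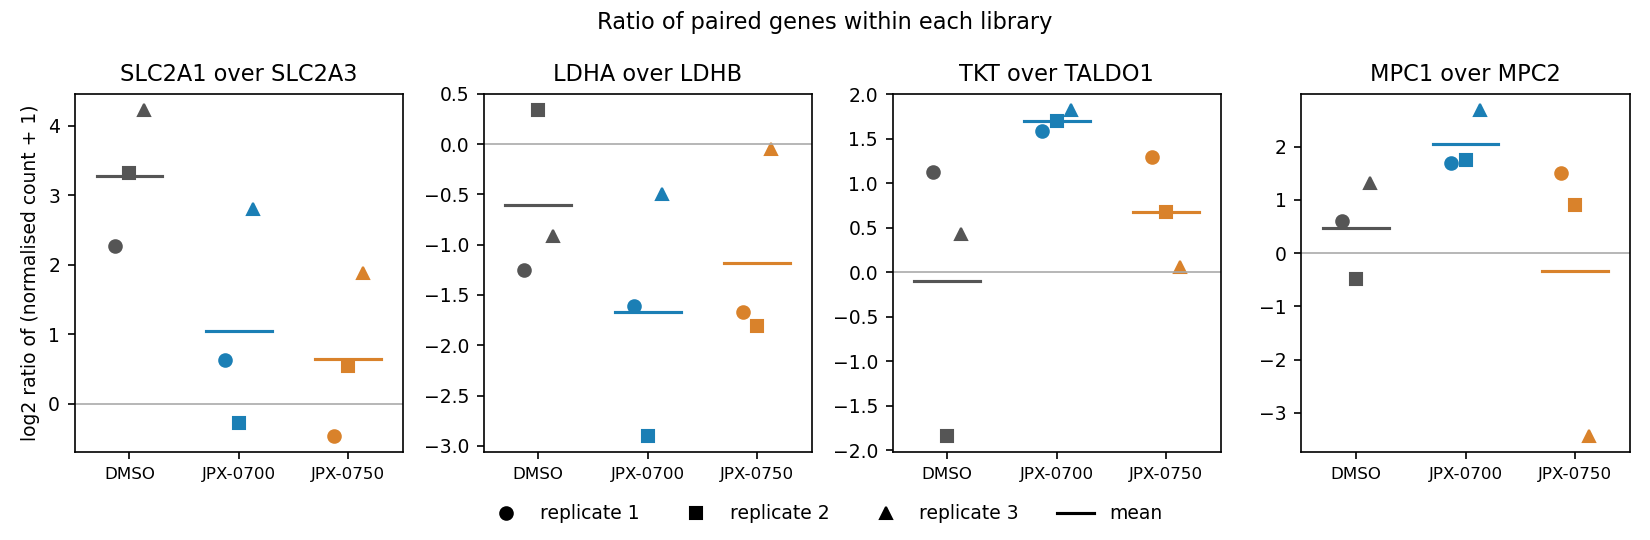
Log2 ratio of the normalised counts, each plus 1, of 2 related genes within each library, by group, with the group mean as a line. SLC2A1 over SLC2A3 is lower in all JPX-0750 libraries than in DMSO, TKT over TALDO1 and MPC1 over MPC2 are higher in all JPX-0700 libraries, and LDHA over LDHB overlaps between the groups.

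A further 37 genes of the same pathways, such as minor isoforms, phosphatases and other subunits, were counted in the same way, and 27 were tested. With JPX-0700 0 rose and 1 fell, after JPX-0750 0 rose and 0 fell, and the medians were -0.56 and -0.28. Among all genes tested 5.28% rose and 0.496% fell with JPX-0700, and 3.9% rose and 0.0732% fell with JPX-0750. The one that fell was SLC2A5, the fructose transporter GLUT5. It held few reads with treatment, 12 after JPX-0700 and 80 after JPX-0750, against 1142 with DMSO. In normalised counts it had 225, 257 and 119 with DMSO, 27.7, 22.4 and 0 after JPX-0700 and 37.7, 18.2 and 108 after JPX-0750, all treated libraries below DMSO. Its log2 fold change after JPX-0700 was -4.45 ± 1.25 SE (limma adjusted p = 0.0427), past the threshold in 12 of 21 alternatives (0.00872 to 0.216), lost among others without any 1 of the DMSO libraries, and -2.89 without JPX-0700 replicate 3. Of 12 regulators in the table, among them HIF1A, MYC, TXNIP and NFE2L2, 0 rose and 0 fell with either compound. MYC had a log2 fold change of -2.11 ± 0.90 after JPX-0700 (adjusted p = 0.201) and -0.53 ± 0.90 after JPX-0750 (0.835). TXNIP, a brake on glucose uptake, had -0.70 ± 0.39 and -0.40 ± 0.39 (adjusted p = 0.338 and 0.687).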

How the data were processed

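Single-end 3′ RNA-seq (QuantSeq) of 9 libraries, 3 per group, was read from the table the authors deposited, which holds normalised counts of 26929 genes by symbol. Per the submitters' processing notes the tools were FastQC 0.11.9, STAR 2.4.2a, SAMtools 1.4, featureCounts 2.0.3 and DESeq2, on the build GRCh38. The sources used here give neither the annotation nor the strand counted, nor how reads with several positions were treated. In each library 100% of the nonzero values equalled the smallest one times a whole number, at a tolerance of 1e-06, so whole reads were recovered by division. They gave the depth, 726043 to 6305586 reads per library. Without molecular identifiers, reads are not independent molecules.

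Genes with a mean of at least 5 were tested with limma 3.58.1 in R 4.3.3 on log2(normalised count + 1), 1 mean per group over all 9 libraries, 6 residual degrees of freedom and a variance trend, with two-sided tests. "Rose" and "fell" mean a p under 0.05 after Benjamini-Hochberg adjustment. Adding 1 shrinks the differences of weakly counted genes. Code was tested on simulated data. Pairs of related genes were compared with exact permutation tests. Symbols were matched to RefSeq, 24159 by current symbol and 1442 by synonym (1328 unmatched), for coordinates, classes and promoters.

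Every member is described by role. Values per library are given for called members, for the 3 widest differences of each comparison and for both genes of each pair. The members, the lists of other pathway genes, regulators and cell type markers, the motifs and the tests were chosen with earlier results of these data known. A few further genes were singled out after their values were seen. Deviations of same-numbered JPX-0700 and JPX-0750 libraries from their group means correlated in every pair (0.129, 0.171 and 0.190 across genes). Replicate 1 of JPX-0750 correlated more with replicate 2 of JPX-0700 (0.153). Replicate 3 of either compound, the library with few genes, correlated negatively with replicates 1 and 2 of the other (-0.198 to -0.119). Deviations from a group mean cancel out over the libraries of the group. A positive correlation with 1 library of the other group therefore requires a negative one with another. These values do not establish pairing by number, which the labels do not state, and the cause of the pattern was not tested. The values reported are from the fit without a block and from unpaired permutation tests, and the replicate block was run as an alternative. Alternatives were other pseudocounts, filters, scalings, sample sets and a replicate block, each library left out, and, added after seeing the data, voom on recovered reads and a fit without the library with the fewest genes of each group.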

Additional observations from a re-analysis of the deposited data

How the results depend on the processing

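In 21 alternatives each, 25 of 33 members kept the sign of their log2 fold change against DMSO for JPX-0700, and 25 for JPX-0750. The others were uncalled members with small or widely spread differences. The members' median stayed below 0 against DMSO throughout, while that of JPX-0750 minus JPX-0700 changed sign when 1 library was left out. The planned test with a count model was not run, since the values, written with a decimal comma, were not entered as counts here, and voom on the recovered whole reads took its place. Depth limits the weakly counted members, among them PFKM, PFKFB3, PFKFB4, ALDOC, ENO2, PGAM1, HK1, HK2, SLC2A3 and RPIA. It also limits single treated libraries of others, such as those of PDHA1, PDHB, MPC1, MPC2 and SLC2A1. The cause of each change below was not tested.

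With JPX-0700, members that fell (1 in the fit described) and the members' median log2 fold change (-0.87) became 8 and -1.60 with total-sum scaling, 5 and -1.33 with protein-coding totals, 2 and -1.17 with TMM, 6 and -1.27 after quantile normalization, and 4 and -1.17 by voom. In that order 2.33%, 1.02%, 0.9999%, 2.097% and 1.097% of all genes fell, against 0.496% in the fit described. Voom called 971 genes, 836 higher and 135 lower (710 in the fit described, 649 and 61). With only the groups compared, 0 members fell and 373 genes were called over the table. Of the 373, 359 were higher and 14 lower. Without the library with the fewest genes of each group, 8 members fell and 2601 genes were called, 2158 higher and 443 lower. Leaving out 1 library gave 0 to 2 members that fell (0 without DMSO replicate 1 or 2, 2 without JPX-0700 replicate 2), 390 (without DMSO replicate 2) to 954 called genes, and medians of -1.07 to -0.74. The share of all genes that fell then ran from 0.0406% (without DMSO replicate 2) to 1.15% (without JPX-0700 replicate 2).

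With JPX-0750, members that fell (1) and the median (-0.93) became 4 and -1.47 with total-sum scaling, 2 and -1.20 with TMM, and 3 and -1.17 after quantile normalization. In that order 0.463%, 0.203% and 0.829% of all genes fell, against 0.0732% in the fit described. Protein-coding totals gave 2 members that fell and voom 3, where 0.146% and 0.480% of all genes fell. Voom called 793 genes, 734 higher and 59 lower (489 in the fit described, 480 and 9). With a pseudocount of 0.5, no filter or only the groups compared 0 members fell, the last with 795 genes called, 726 higher and 69 lower. Without the library with the fewest genes of each group, 1 member rose and 5 fell, and the median was -0.70. In that setting 2559 genes were called, 2184 higher and 375 lower. Leaving out 1 library gave 0 to 2 members that fell (2 without JPX-0700 replicate 3), 254 (without JPX-0750 replicate 1) to 1096 (without JPX-0700 replicate 3) called genes, and medians of -0.99 to -0.67. The share of all genes that fell then ran from 0% (without DMSO replicate 2) to 0.854% (without JPX-0700 replicate 3). For JPX-0750 against JPX-0700 the median (0.24) was 0.48 with protein-coding totals and -0.046 to 0.36 with 1 library left out. Pairs of related genes without overlap numbered 2 to 5 (JPX-0700 against DMSO), 1 to 3 (JPX-0750 against DMSO) and 2 to 5 (JPX-0750 against JPX-0700) with 1 library left out.

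DMSO and treated libraries share only their replicate numbers, and deviations of same-numbered libraries correlated between -0.143 and -0.0436. With a replicate block 1 member fell with JPX-0700 and 0 with JPX-0750, where ENO1 had adjusted p = 0.0513, with 694 and 473 genes called over the table. Of these 68 and 10 were lower. Between the compounds the block gave 0 calls, and each library did not always correlate best with its own number.

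Signs changed as follows. With JPX-0700, ENO2 (log2 fold change 0.33) had -0.36, -0.11 and -0.24 with total-sum, protein-coding and quantile scaling, and MPC1 (0.23) had -0.50, -0.23, -0.070, -0.11 and -0.064 with total-sum, protein-coding, TMM and quantile scaling and voom. SLC2A3 (0.37) had -0.31 and -0.056 with total-sum and protein-coding scaling, PDK1 (0.62) -0.10 with total-sum scaling, and PFKM (0.60) -0.14 after quantile normalization. Without the libraries with the fewest genes PFKM had -0.053, PFKFB3 0.18 and TKT 0.56. With JPX-0750, PFKFB4 (0.22) had -0.28, -0.017 and -0.95 with total-sum, TMM and quantile scaling, PFKFB3 (0.53) -0.047 after quantile normalization, TPI1 (0.54) -0.000626 with total-sum scaling, and ALDOC (-0.09) 0.044 with a pseudocount of 5. Without the libraries with the fewest genes ALDOC had 0.29, PFKM -0.67, TKT 0.44 and MPC1 0.39. With 1 library left out the JPX-0700 values ran from -0.46 to 1.22 for ENO2, -0.48 to 0.47 for PFKFB3, -0.20 to 1.09 for PFKM, -1.15 to 0.16 for PFKP, -0.35 to 1.22 for SLC2A3, -1.29 to 0.026 for TKT and -0.10 to 0.41 for MPC1. The JPX-0750 values ran from -1.05 to 1.11 for ALDOC, -0.41 to 1.14 for PFKFB4, -1.05 to 0.16 for TKT, -0.51 to 0.25 for MPC2 and -1.54 to 0.22 for MPC1.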
